A study of Mus musculus with 6 samples.

Results

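ATP-binding cassette (ABC) genes were compared between MTT and MPC cells, both of them mouse pheochromocytoma lines. The set comprised 38 named ABC genes, among them the drug efflux pumps, out of 19937 genes measured on the arrays, and each of the 38 was read by 1 probe set assigned to that gene symbol alone. Pheochromocytoma is a catecholamine-producing tumor of the adrenal medulla. MPC cells came from Nf1 knock-out mice and are described as well differentiated, whereas MTT cells are a faster-growing, more aggressive line obtained from liver metastases formed by MPC cells, so the Nf1 background is common to both. Total RNA of 3 MTT and 3 MPC samples, with no drug treatment named, was hybridized to 1 Affymetrix Mouse Gene 1.0 ST array each. The study's methods describe the MTT samples, and the tissue source and growth text of the MPC samples repeat those of MTT, so the MPC group rests on the sample titles and the cell type given. Each group is a single permanent line. The methods call the MTT samples separate, but no source says that the 3 samples of a line were separate cultures, so the p-values measure only the spread between these samples, which may be technical.

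ABC proteins bind and hydrolyze ATP, and most of them use that energy to move a substrate across a membrane. The family includes pumps that expel drugs and conjugates from the cell, exporters of cholesterol and phospholipids, carriers of peroxisomes, mitochondria and lysosomes, and the sulfonylurea receptors, which regulate a potassium channel. Members of the E and F subfamilies lack membrane spans and act on the ribosome. Efflux pumps are best known in tumors for lowering the amount of a drug that stays in the cell. The study from which these arrays come screened drugs on MTT cells and then tested selected compounds on MPC cells as well.

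All values are log2 signals after RMA, a method that corrects the background, equalizes the distribution of signals among arrays and summarizes the probes of a probe set. Signals of different genes are not comparable as amounts of RNA on an array, since probes differ in brightness, and each difference was therefore taken within a gene, between the lines. Where signals are set against the median or against other genes below, this is only a rough guide to dim probe sets. The median signal per array was 7.73 to 7.76 in MTT and 7.73 to 7.77 in MPC, and no arrays were identical. The 6 chromaffin markers measured, which cover catecholamine synthesis and storage, had group mean signals of 9.54 to 13.49. Of these, Slc18a1, a vesicular monoamine transporter, was higher in MTT by 0.27 (limma adjusted p = 0.00424), and Chgb, a granule protein, fell by 0.15 (limma adjusted p = 0.0233). None of 29 markers of hepatocytes, adrenal cortex, endothelium, fibroblasts, macrophages or Schwann cells passed the limma test, and 1 of them, the endothelial Pecam1, had an unadjusted p under 0.05. Their group mean signals were 4.32 to 8.76, and their summed linear signal was 3736 to 3898 on MTT arrays and 3689 to 3941 on MPC arrays.

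Most ABC genes had nearly the same signal in both lines, and 4 of the 38 passed the test for a difference. Abcg1, a cholesterol exporter, and the sulfonylurea receptor genes Abcc8 and Abcc9 were lower in MTT cells, and Abcd2, a peroxisomal fatty acid transporter, was higher. The test was limma with Benjamini-Hochberg adjustment over all 19937 genes and a threshold of adjusted p under 0.05, and genes that passed it are referred to as called. In all, 7.87% of genes were called, and among ABC genes the share was 10.5% (4 of 38). Of all genes 3.93% were higher in MTT, against 1 ABC gene (2.63%), and 3.94% were lower, against 3 ABC genes (7.89%). The count of 4 fell to 1, Abcg1, without MTT replicate 1, to 2 without MTT replicate 3 or MPC replicate 2 and to 3 without each of the other arrays, while the share of all genes called fell to between 4.47% and 6.40%. An unadjusted p under 0.05 was reached by 20.5% of genes and by 7 ABC genes (18.4%). The 3 MTT arrays lay wholly above or wholly below the 3 MPC arrays for 27.2% of genes and for 8 ABC genes (21.1%). The shares called, at an unadjusted p under 0.05 and without overlap lie near the background, and nothing about the list as a whole is read from them. Nor is anything about a role within the list read from the counts by role given below. RNA from whole cultures cannot tell fewer cells expressing a gene from less RNA per cell.

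**Figure D1:**
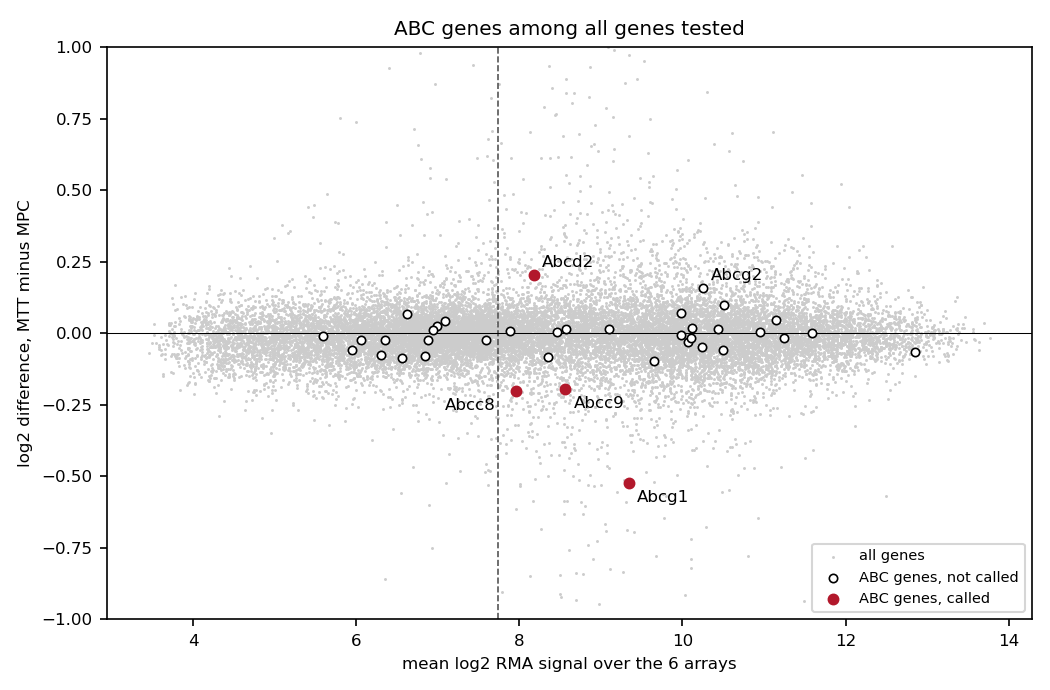
Each point is a gene, with its mean log2 RMA signal over the 6 arrays on the horizontal axis and the log2 difference, MTT minus MPC, on the vertical axis; gray points are all genes, open circles the ABC genes that were not called and filled red circles the 4 called, and the dashed line is the median signal of 7.74. Abcg1 lies well below the band that holds most ABC genes (33 genes beyond the vertical axis are not drawn).

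The median log2 difference was -0.01 over the ABC genes and -0.01 over all genes. Without regard to sign, the median difference was 0.037 over the ABC genes and 0.050 over all genes. The difference was negative in 21 ABC genes and positive in 17. In the 34 that were not called, it lay between -0.10 and 0.16, with limma adjusted p from 0.0656 to 0.996. The 95% confidence intervals of these 34 genes reached no lower than -0.21 and no higher than 0.26. Replicates differed little, since the median SD of an ABC gene was 0.041 in MTT and 0.046 in MPC. Over all genes it was 0.046 and 0.051.

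**Figure D2:**
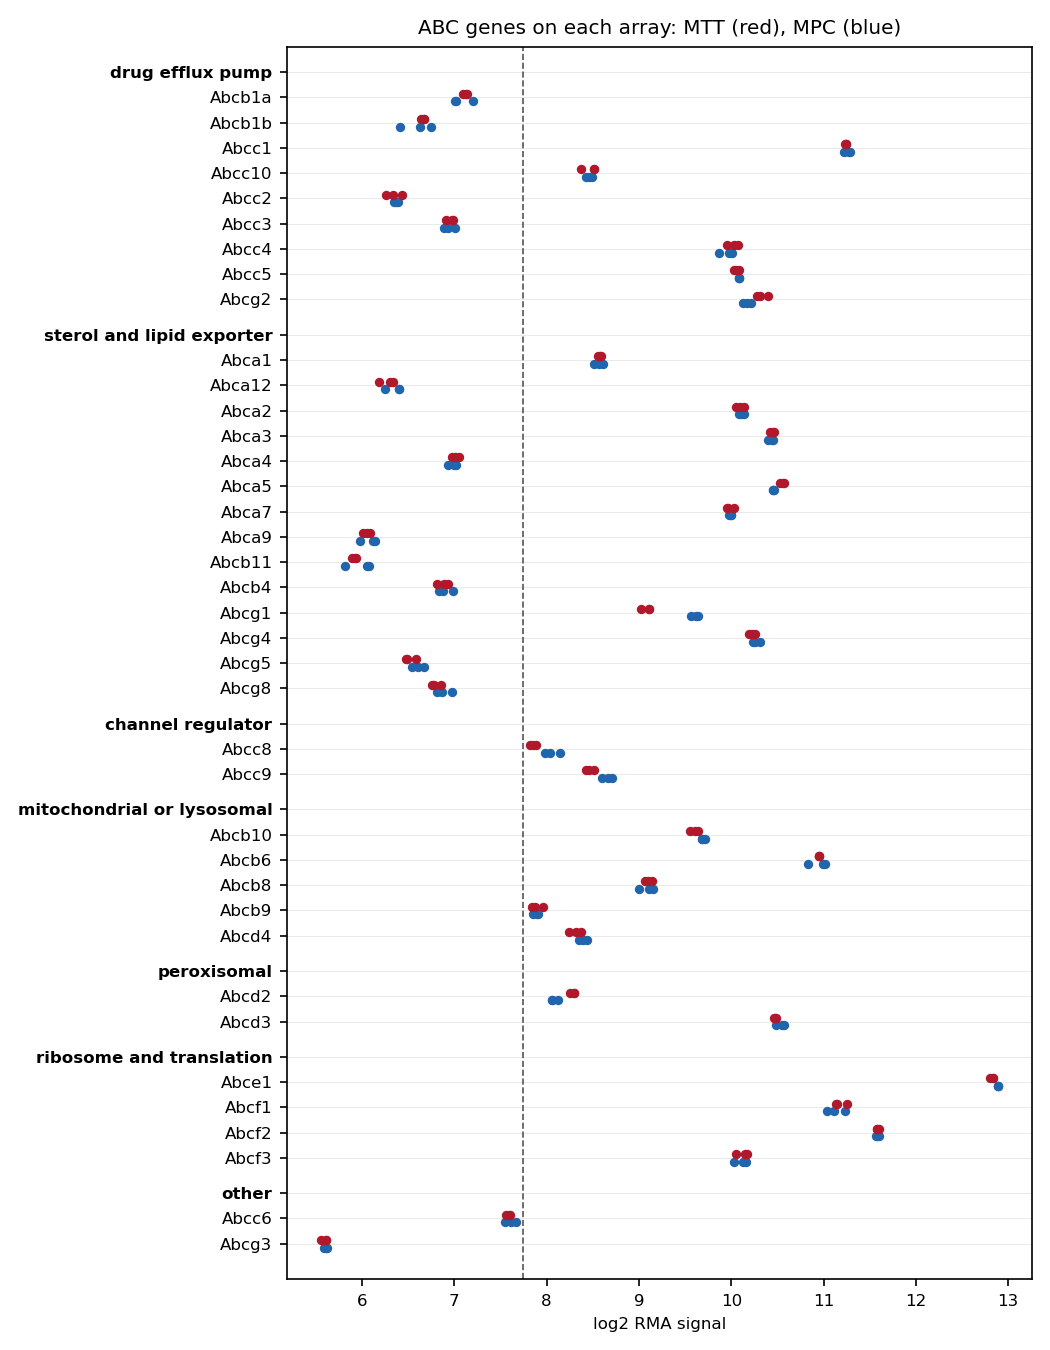
The horizontal axis gives the log2 RMA signal of each ABC gene on each array, by role, with 3 MTT arrays in red and 3 MPC arrays in blue and the median signal of 7.74 as a dashed line. Both sets of points coincide for most genes, and the points of Abcg1 are the farthest apart.

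The signal was at or above the median of all probe sets, 7.74, in 25 ABC genes and below it in 13, while 42.7% of all genes were below. The 13 were the pumps Abcb1a, Abcb1b, Abcc2 and Abcc3, the lipid exporters Abca4, Abca9, Abca12, Abcb4, Abcb11, Abcg5 and Abcg8, and also Abcc6 and Abcg3, which the plot of signals on each array places to the left of the dashed line. For these genes a signal above background is not shown, and a small difference between lines could be missed. The markers of other cell types had group mean signals up to 8.76, that of the fibroblast gene Col1a1, so a signal somewhat over the median does not show it either. The called genes Abcc8, Abcd2 and Abcc9 had group means of 7.85 to 8.66, inside the range of those markers, and the means of Abcg1 were above it.

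Among the 14 sterol and lipid exporters, 1 was lower in MTT, against 3.94% of all genes, and 13 were not called. Abcg1 moves cholesterol from cells to high-density lipoprotein and had the largest difference of all 38 ABC genes. Its signal on the MTT arrays was 9.02, 9.11 and 9.11, and on the MPC arrays 9.64, 9.61 and 9.57. Every MTT array lay below every MPC array. The means (± SD, n = 3 arrays each) were 9.08 ± 0.05 for the MTT line and 9.61 ± 0.03 for the MPC line. The log2 difference was -0.52 (SE 0.039, 95% confidence interval -0.61 to -0.44, limma adjusted p = 0.000143), a signal 1.44-fold higher in MPC. In the whole comparison 115 genes had a smaller p than Abcg1, and 72 genes that were lower in MTT fell further. The call held under all 14 alternative settings tried, with adjusted p between 1.104e-06 and 0.0147.

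Abca1, which loads cholesterol onto lipid-poor apolipoproteins and is often named beside Abcg1, had a mean of 8.58 in MTT and 8.56 in MPC (95% confidence interval of the difference -0.07 to 0.10, limma adjusted p = 0.900). Abcg4, the closest relative of Abcg1, had 10.22 in MTT and 10.27 in MPC (difference -0.05, adjusted p = 0.513). Neither was called, and the interval of each lies above that of Abcg1. The means of Abca1 lay inside the range of the markers of other cell types, which reached 8.76. A signal above background is therefore not shown for Abca1, and a difference could be missed. Abca5, a lysosomal member of the A subfamily, was 10.53, 10.56 and 10.57 on the MTT arrays. On the MPC arrays Abca5 was 10.45, 10.47 and 10.46. These arrays did not overlap, but the difference of 0.10 missed the threshold (95% confidence interval 0.02 to 0.17, limma adjusted p = 0.117). It passed without moderation of the variances (0.0398), with a mean-variance trend (0.0426) and among genes at or above the median signal (0.0284). Under the other 11 of 14 alternative settings Abca5 was not called, including all 6 fits without 1 array (0.180 to 0.288).

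Abcg5 and Abcg8 form the pump that returns plant sterols and cholesterol to bile and gut, and they are neighbors on chromosome 17. Abcg5 was 6.59, 6.48 and 6.49 on the MTT arrays and 6.61, 6.67 and 6.54 on the MPC arrays (difference -0.09, limma adjusted p = 0.342). Abcg8 was 6.78, 6.76 and 6.86 against 6.81, 6.86 and 6.97 (difference -0.08, adjusted p = 0.424). The arrays of the lines overlapped for both genes. The phospholipid carriers Abca2, Abca3, Abca4, Abca7, Abca9, Abca12 and Abcb4 and the bile salt pump Abcb11 completed the role. Their differences ran from -0.08 for Abca12 to 0.03 for Abca4, and none of these 8 sets of arrays was apart.

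None of the 9 drug efflux pumps was called, and 1 of them, Abcg2, had an unadjusted p under 0.05. Of all genes 7.87% were called and 20.5% had such an unadjusted p. Over the 9 pumps the median difference was 0.01, and the 95% confidence intervals reached from -0.13 to 0.26. Abcg2, known as breast cancer resistance protein, exports topoisomerase inhibitors, urate and porphyrins. Its signal was 10.39, 10.28 and 10.31 on the MTT arrays and 10.17, 10.22 and 10.13 on the MPC arrays. The lowest MTT array lay above the highest MPC array. The difference of 0.16 missed the threshold (95% confidence interval 0.06 to 0.26, limma adjusted p = 0.0656). It passed with a mean-variance trend (0.0136), among genes at or above the median signal (0.0152) and after cyclic loess normalization (0.0380). Under the other 11 of 14 alternative settings Abcg2 was not called. These included all 6 fits without 1 array (0.0888 to 0.188), no moderation of the variances (0.162), the replicate block (0.0827) and median centring (0.0851).

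P-glycoprotein, which expels many natural-product drugs including taxanes and colchicine, is encoded in the mouse by the adjacent genes Abcb1a and Abcb1b. The genes are close paralogs, so their probe sets may share signal. Abcb1a was 7.13, 7.13 and 7.09 on the MTT arrays and 7.01, 7.01 and 7.20 on the MPC arrays. Its difference was 0.04 (95% confidence interval -0.08 to 0.17, limma adjusted p = 0.730). Abcb1b was 6.68, 6.67 and 6.64 on the MTT arrays and 6.41, 6.63 and 6.75 on the MPC arrays. Its difference was 0.07 (95% confidence interval -0.11 to 0.24, adjusted p = 0.710). The 3 MPC arrays of Abcb1b were more spread (SD 0.17) than those of any other ABC gene, and the lowest and highest of them enclosed all MTT values. Both genes lay below the median signal.

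Abcc1, the multidrug resistance protein that exports glutathione conjugates, was 11.25, 11.23 and 11.24 on the MTT arrays and 11.28, 11.27 and 11.22 on the MPC arrays. The difference was -0.02 (95% confidence interval -0.10 to 0.06, limma adjusted p = 0.818). This interval does not reach that of Abcg1. Abcc4, an exporter of cyclic nucleotides and nucleotide analogs, had a difference of 0.07 (adjusted p = 0.484), and Abcc5, of like substrates, had -0.03 (adjusted p = 0.668). The conjugate pumps Abcc2, Abcc3 and Abcc10 had differences of -0.03, 0.01 and 0.00. Among these, Abcc2 and Abcc3 were below the median signal.

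**Figure D3:**
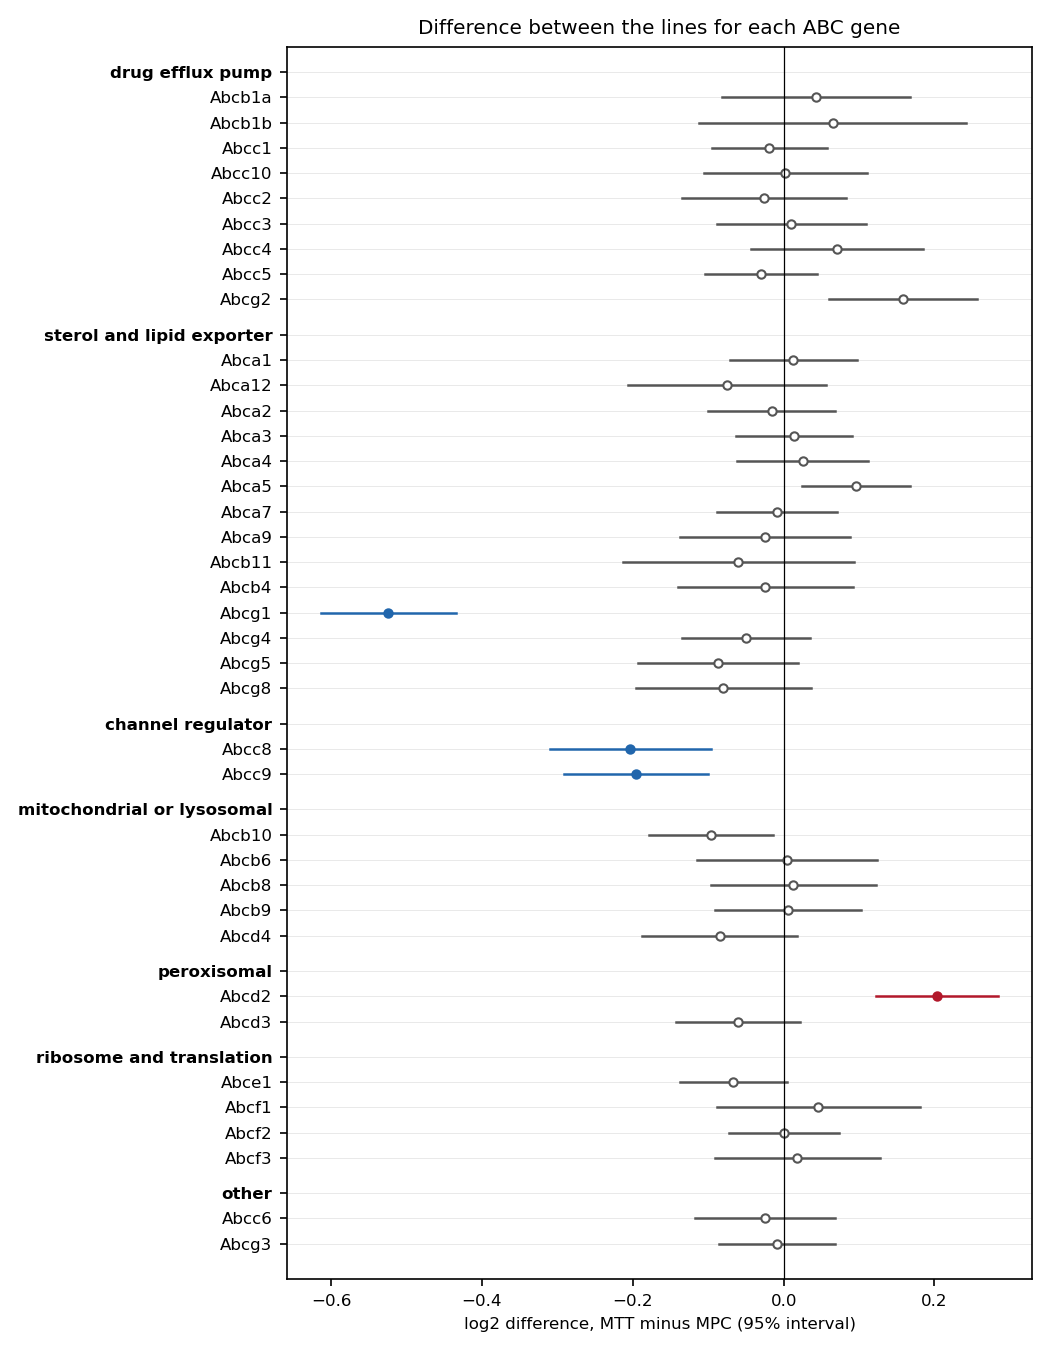
The horizontal axis gives the log2 difference, MTT minus MPC, of each ABC gene with its 95% confidence interval from limma, by role, with genes called lower in blue, genes called higher in red and genes not called as open circles. Abcg1 lies at -0.52, Abcc8 and Abcc9 at -0.20 and Abcd2 at 0.20, and most other intervals include 0.

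Both sulfonylurea receptor genes were lower in MTT cells. Their proteins do not carry a substrate but surround the pore of the ATP-sensitive potassium channel and tie its opening to the energy state of the cell. Abcc9, which encodes SUR2, was 8.46, 8.51 and 8.43 on the MTT arrays and 8.67, 8.71 and 8.60 on the MPC arrays. The means (± SD, n = 3 arrays each) were 8.46 ± 0.04 for the MTT line and 8.66 ± 0.06 for the MPC line. The difference was -0.20 (SE 0.041, 95% confidence interval -0.29 to -0.10, limma adjusted p = 0.0253). Abcc8, which encodes SUR1, was 7.82, 7.85 and 7.89 on the MTT arrays and 7.99, 8.04 and 8.15 on the MPC arrays. The means (± SD, n = 3 arrays each) were 7.85 ± 0.03 for the MTT line and 8.06 ± 0.08 for the MPC line. The difference was -0.20 (SE 0.046, 95% confidence interval -0.31 to -0.10, limma adjusted p = 0.0350). For both genes every MTT array was below every MPC array.

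The calls of Abcc9 and Abcc8 were lost in most fits that left out an array. Abcc9 was no longer called in 4 of 6 fits that left out 1 array. These were the fits without MTT replicate 1 (adjusted p = 0.0894), MTT replicate 3 (0.0892), MPC replicate 1 (0.0774) and MPC replicate 2 (0.0915). Nor was Abcc9 called without moderation of the variances (0.0995) or with median centring (0.0503). Abcc8 was no longer called in 5 of 6 such fits, namely without MTT replicate 1 (0.126), 2 (0.112) or 3 (0.0706) and without MPC replicate 2 (0.0897) or 3 (0.0638). Without moderation of the variances its adjusted p was 0.139. The pore genes of the same channel lie next to the receptor genes. Kcnj8, beside Abcc9, had a difference of -0.05 (95% confidence interval -0.13 to 0.03, adjusted p = 0.484), with every MTT array below every MPC array. Kcnj11, beside Abcc8, had a difference of -0.04 (95% confidence interval -0.12 to 0.04, adjusted p = 0.580), and its arrays overlapped. Neither pore gene was called. Their group means, 8.04 to 8.37, lay inside the range of the markers of other cell types.

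**Figure D4:**
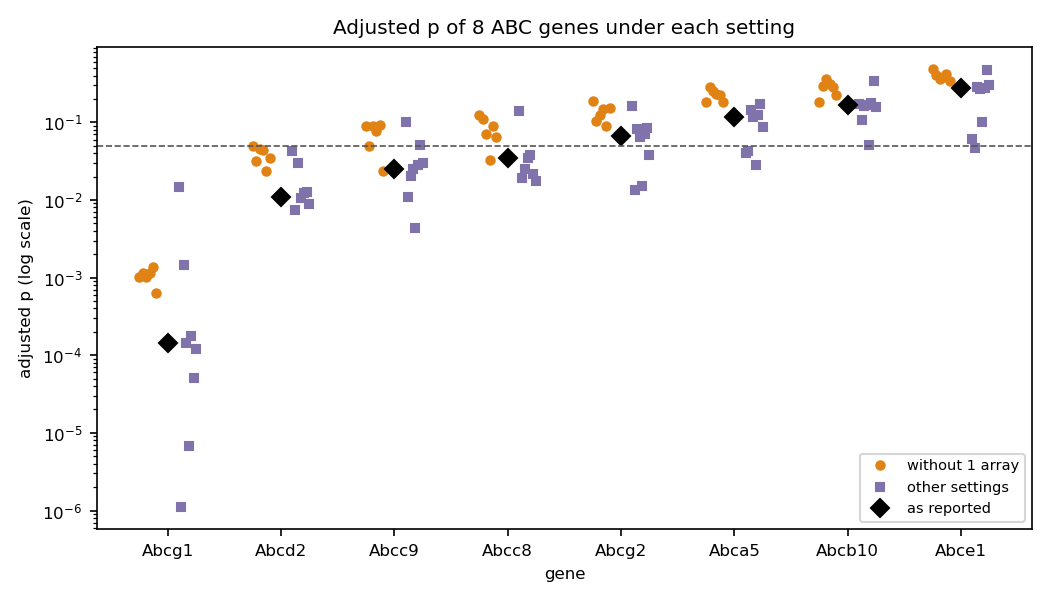
The vertical axis, on a log scale, gives the limma adjusted p of 8 ABC genes as reported (black diamonds), in 6 fits without 1 array (orange circles) and under the other settings (purple squares), with the threshold of 0.05 dashed. All points of Abcg1 lie below the line, whereas those of Abcc9 and Abcc8 lie on both sides.

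Of the 2 peroxisomal transporters, 1 was higher in MTT, against 3.93% of all genes. Abcd2 imports very-long-chain and polyunsaturated fatty acids for oxidation in peroxisomes. Its signal was 8.30, 8.25 and 8.30 on the MTT arrays and 8.06, 8.12 and 8.06 on the MPC arrays, with no overlap. The means (± SD, n = 3 arrays each) were 8.28 ± 0.03 for the MTT line and 8.08 ± 0.03 for the MPC line. The difference was 0.20 (SE 0.035, 95% confidence interval 0.12 to 0.28, limma adjusted p = 0.0110), a 1.15-fold higher signal in MTT. The adjusted p rose to 0.0501 without MTT replicate 1, and the gene was then not called. Abcd3, which imports branched-chain and dicarboxylic fatty acids, was 10.48, 10.46 and 10.47 on the MTT arrays and 10.48, 10.57 and 10.55 on the MPC arrays. The difference of Abcd3 was -0.06 (limma adjusted p = 0.393), opposite in sign to that of Abcd2 and not called.

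None of the 5 mitochondrial or lysosomal transporters was called, against 7.87% of all genes. Abcb10, an inner-membrane protein of mitochondria needed for heme synthesis, was 9.64, 9.61 and 9.55 on the MTT arrays and 9.71, 9.68 and 9.69 on the MPC arrays. The arrays did not overlap, and the difference was -0.10 (95% confidence interval -0.18 to -0.01, limma adjusted p = 0.169). Abcd4, which takes part in the release of vitamin B12 from lysosomes, was 8.37, 8.31 and 8.24 on the MTT arrays and 8.40, 8.35 and 8.44 on the MPC arrays (difference -0.08, adjusted p = 0.338). Abcb6, a porphyrin transporter, was 10.95, 10.95 and 10.96 on the MTT arrays and 11.02, 10.99 and 10.83 on the MPC arrays. Its difference was 0.00 (adjusted p = 0.978), and 1 MPC array stood below the other arrays. The mitochondrial Abcb8 and the lysosomal peptide transporter Abcb9 each had a difference of 0.01.

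None of the 4 ribosome and translation members was called, against 7.87% of all genes. Abce1, which splits ribosomes into subunits after termination, was 12.80, 12.83 and 12.83 on the MTT arrays and 12.89 on each of the 3 MPC arrays. The MTT arrays all lay below, by a mean of 0.07 (difference -0.07, 95% confidence interval -0.14 to 0.00, limma adjusted p = 0.273). Of 14 alternative settings, Abce1 passed only with a mean-variance trend (0.0468). Abcf1, which promotes translation initiation, was 11.25, 11.13 and 11.14 on the MTT arrays and 11.12, 11.24 and 11.03 on the MPC arrays (difference 0.05, adjusted p = 0.732). Abcf2 was 11.60, 11.58 and 11.57 against 11.58, 11.57 and 11.60, with a difference of 0.00 (95% confidence interval -0.07 to 0.07, adjusted p = 0.996). Abcf3 had a difference of 0.02. Outside these roles, Abcc6, whose loss causes ectopic calcification, had a difference of -0.03, and the rodent gene Abcg3 had -0.01.

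Some of the ABC genes are neighbors in the genome. On chromosome 5 the adjacent genes Abcb1a, Abcb1b and Abcb4 had differences of 0.04, 0.07 and -0.02. On chromosome 16, Abcc5 had -0.03 and Abcf3 had 0.02. On chromosome 7, Abcc8 was called and Abcc6, 3 measured genes away, was not. The ABC genes were spread over 17 chromosomes. None lay on chromosome 13, whose 732 genes had a median difference of 0.08, and 1, Abcc2, lay on chromosome 19, whose 675 genes had a median of -0.06.

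Genes that work with or beside these ABC genes were counted in the same fit. Of 102 such genes, 11 were called (10.8%), 3 higher and 8 lower in MTT, against the background of 7.87% given above. By list, the share called ran from 0% to 16.7%. The lists hold 2 to 23 genes each, and nothing about a list is read from its count. Among 13 other ABC genes outside the 38, only the antigen peptide transporters were called. Tap2 was 9.99, 9.92 and 9.90 on the MTT arrays and 10.21, 10.19 and 10.24 on the MPC arrays (difference -0.28, limma adjusted p = 0.00356). Tap1, its partner in the same complex, was 10.04, 9.98 and 9.87 against 10.27, 10.26 and 10.13 (difference -0.26, adjusted p = 0.0271). Both genes lie on chromosome 17, and their MTT arrays were all below the MPC arrays. Tap1 was not called without MTT replicate 2 (0.0821) or 3 (0.0810), without MPC replicate 1 (0.0888) or 2 (0.0985), or without moderation of the variances (0.149).

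Cholesterol export by Abcg1 and Abca1 is controlled by sterol-sensing factors. Of 18 genes listed for sterol sensing and nuclear receptors, among them the ligase Mylip, 3 were called (16.7%, against 7.87% of all genes). The 15 not called included the nuclear receptor Nr1h3 (difference 0.04, limma adjusted p = 0.661), Srebf2 (-0.01, adjusted p = 0.876) and Scap (0.04, adjusted p = 0.607). An unadjusted p under 0.05 was reached by 5 of the 18 genes, against 20.5% of all genes. The uncalled ones among these were Pparg (difference 0.17, adjusted p = 0.154) and Rxra (-0.08, adjusted p = 0.209). The MTT arrays of Pparg lay all above the MPC arrays, and those of Rxra, Ppard and Nr1i2 all below. Nr1h3, Pparg and Nr1i2 were under the median signal of 7.74. A link between the called genes and Abcg1 was not tested. Srebf1, a transcription factor for lipid synthesis, was 10.50, 10.49 and 10.48 on the MTT arrays and 10.79, 10.69 and 10.67 on the MPC arrays (difference -0.23, limma adjusted p = 0.0116). Insig1, which holds sterol-sensing complexes in the endoplasmic reticulum, was 11.53, 11.48 and 11.37 against 11.73, 11.68 and 11.78 (difference -0.27, adjusted p = 0.0127). Mylip, a ligase that targets the low-density lipoprotein receptor and lies on chromosome 13, was 8.72, 8.77 and 8.74 against 8.50, 8.51 and 8.44 (difference 0.26, adjusted p = 0.00396). Srebf1 (0.0682) and Insig1 (0.0937) were not called without moderation of the variances.

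Of 15 sterol acceptor, uptake and synthesis genes, 2 were lower in MTT (13.3% called, against 7.87% of all genes) and 13 were not called. Lss, which closes the sterol ring system, was 11.07, 11.07 and 11.05 on the MTT arrays and 11.23, 11.24 and 11.26 on the MPC arrays (difference -0.18, limma adjusted p = 0.0121). Scarb1, a receptor for high-density lipoprotein, was 10.22, 10.17 and 10.16 against 10.38, 10.34 and 10.32 (difference -0.17, adjusted p = 0.0271). Scarb1 was not called without MTT replicate 2 (0.108) or 3 (0.0941), without MPC replicate 1 (0.0894) or 2 (0.0850), without moderation of the variances (0.0672) or with median centring (0.0718).

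**Figure D5:**
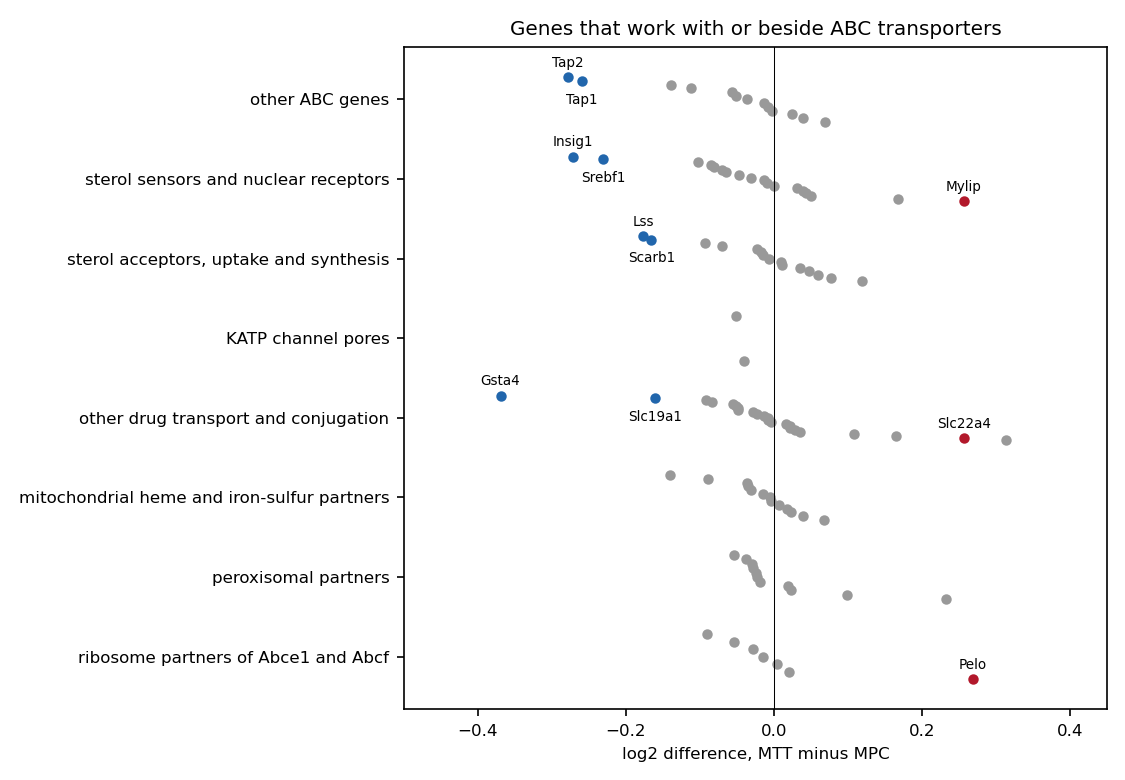
Each point is a gene of a list that works with or beside ABC transporters, with its log2 difference, MTT minus MPC, on the horizontal axis; blue points are genes called lower, red points genes called higher and gray points genes not called. The 11 called genes are named, and the 3 lists without a called gene are the KATP channel pores, the mitochondrial partners and the peroxisomal partners.

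Of 23 genes for other drug transport and conjugation, 1 was higher and 2 were lower (13% called, against 7.87% of all genes). Gsta4, a glutathione transferase that conjugates lipid aldehydes, was 9.77, 9.69 and 9.57 on the MTT arrays and 10.01, 10.16 and 9.97 on the MPC arrays (difference -0.37, limma adjusted p = 0.0124; 0.118 without moderation of the variances). Slc19a1, the reduced folate carrier, which also takes up methotrexate, was 11.47, 11.49 and 11.46 against 11.66, 11.59 and 11.64 (difference -0.16, adjusted p = 0.0260). Slc22a4, a carrier of organic cations and ergothioneine, was 8.15, 8.15 and 8.09 against 7.75, 7.91 and 7.95 (difference 0.26, adjusted p = 0.0277). In each of these genes the arrays of the lines did not overlap. The adjusted p of Slc19a1 was 0.0643 to 0.0880 in the 5 of 6 fits without 1 array in which it was not called, all but the one without MPC replicate 2. Nor was Slc19a1 called without moderation of the variances (0.0523) or with median centring (0.0613). That of Slc22a4 was 0.0607 to 0.102 in 4 of 6, those without MTT replicate 1, 2 or 3 and without MPC replicate 2, and 0.149 without moderation of the variances.

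Among partners of the organelle and ribosome members (11, 13 and 7 genes), 1 gene was called, against 7.87% of all genes. None of 11 peroxisomal partners was called, and 2 had an unadjusted p under 0.05, which 20.5% of all genes reached. These 2, named after their values were seen, were Pex11a and Pex5, whose MTT arrays all lay above the MPC arrays. The MTT arrays of Pex3 all lay below (difference -0.02, limma adjusted p = 0.758). Arrays of the lines were without overlap for 27.2% of all genes. Pex11a, which acts in peroxisome division, was 8.19, 8.21 and 8.27 on the MTT arrays and 8.02, 8.13 and 7.83 on the MPC arrays (difference 0.23, limma adjusted p = 0.0950). Pex5, the import receptor for peroxisomal enzymes, was 9.75, 9.74 and 9.69 against 9.63, 9.69 and 9.57 (difference 0.10, adjusted p = 0.208). The probe sets with the highest signals in this list were those of Pex19, a chaperone of peroxisomal membrane proteins, with a mean of 11.91 in MTT and 11.89 in MPC, and Elovl1, which elongates very-long-chain fatty acids, with 11.37 and 11.40. None of 13 heme and iron-sulfur partners of mitochondria was called, and 1 had an unadjusted p under 0.05. That gene, named after its values were seen, was Slc25a37, the iron importer of mitochondria (difference -0.14, adjusted p = 0.236). The probe sets with the highest signals there were those of Slc25a39, a mitochondrial glutathione carrier, with a mean of 12.20 in both lines, and Iscu, the scaffold of iron-sulfur cluster assembly, with 11.18 in MTT and 11.20 in MPC. Among 7 ribosome partners, Pelo, which recognizes stalled ribosomes before Abce1 splits them, was higher in MTT. It was 9.17, 9.21 and 9.17 on the MTT arrays and 8.98, 8.90 and 8.86 on the MPC arrays (difference 0.27, limma adjusted p = 0.00604; 0.0526 without moderation of the variances), and it lies on chromosome 13.

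The arrays contributed unequally to the spread of the ABC genes. In MTT, replicate 1 was the array farthest from the mean of its group for 16 of the 38 genes, replicate 2 for 8 and replicate 3 for 14. In MPC these counts were 7, 11 and 20. The median deviation of the 38 genes from the group mean was at most 0.010 in size on every array.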

How the data were processed

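RNA of 3 MTT and 3 MPC samples was measured on 1 array each. The authors deposited log2 values made with RMA. Affymetrix Expression Console is named in the submitters' processing notes and Partek in the study's methods, with versions not given in the sources used here. Of the probe sets, 21640 had 1 gene symbol in the platform annotation, 1321 had several and 11799 had none here. The brightest probe set stood for each of 954 genes that had several, leaving 19937 genes. RefSeq annotation of GRCm38.p6 gave only chromosomes and the order of genes, since the array build is not given.

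Lines were compared in R 4.3.3 with limma 3.58.1 (lmFit, eBayes, two-sided, no covariate) and data.table (version 1.17.8), with Benjamini-Hochberg adjustment over all genes. Figures were drawn with matplotlib 3.10.9 in Python 3.11.15. Values per array were given for called members, the 8 uncalled members with the smallest p, 4 well-known pumps and the 5 brightest. Of each partner list up to 4 called genes were named, or the brightest where none was called. Outside this rule, some uncalled genes of these lists were also named, with all values at hand. Members and lists were chosen with earlier results of these data known. Alternatives were another variance model, probe set rule, filter or normalization, a replicate block and leaving out each array. On simulated data for MTT against MPC with 19937 genes, the test found 99 of 100 genes given a log2 change of 1 and 54 of 100 given 0.25. Of 158 calls there, 5 were false. The number of arrays limits the precision.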

Additional observations from a re-analysis of the deposited data

How the results depend on the processing

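The count of genes called in the whole comparison, 1569, was 824 without moderation of the variances, 2416 with a mean-variance trend and 891 to 1276 when 1 array was left out. The share of all genes called, 7.87%, was 4.13% without moderation, 12.1% with the trend, 22.1% among the 9969 genes at or above the median of gene signals, 22 of them ABC genes, 6.73% with median centring and 8.68% after cyclic loess. Higher ABC genes numbered 2 without moderation, 3 with the trend, 2 among the brighter genes, 2 after cyclic loess and 0 to 1 with 1 array left out, the 0 being without MTT replicate 1. Lower ABC genes numbered 1 without moderation, 4 with the trend, 2 among the brighter genes, 2 with median centring, 3 after cyclic loess and 1 to 2 with 1 array left out. The 11 partner genes called became 4 without moderation, 17 with the trend and 7 to 10 with 1 array left out. With 1 array left out, the log2 difference ranged from -0.029 to 0.14 for Abcb1b, from -0.0084 to 0.010 for Abcf2, from -0.0019 to 0.10 for Abcf1 and from -0.055 to 0.041 for Abcb6, none of which was called. The causes of these changes were not tested. Samples of the same number shared deviations with correlations of 0.12, 0.07 and 0.25, all positive but not all over 0.1. The array median also rose with the number in both lines, from 7.727 to 7.733 and 7.761 in MTT and from 7.729 to 7.744 and 7.772 in MPC. The numbers were not taken as pairs in the main fit, and shared handling was not tested. The replicate block gave 1501 genes, 1 higher and 3 lower ABC genes and 11 partner genes. Of the called ABC and partner genes named above only Slc19a1 lost its call (limma adjusted p = 0.0511). Slc18a1, Chgb, Slc2a13 and Cpne8 were not followed under these settings. Abcd2 and the other named genes under the median of gene signals could not be tested with the filter on dim genes. In the simulation, 54 of 100 genes given a difference of 0.25 were found. Fewer genes were called there (158) than in these data (1569), so a stricter unadjusted p was needed. The share of such differences missed here cannot be read from it. Slc19a1 was called at a difference of -0.16, whereas Slc22a5, of the same partner list, was not called at 0.31.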

Other observations

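The 3 measured genes on either side of each called ABC gene were read in the same fit. None of the 6 neighbors of Abcg1, of Abcc9 or of Abcc8 was called. Of the 6 neighbors of Abcd2 on chromosome 15, 2 were called, in opposite directions. Of all genes 7.87% were called, and nothing about the region is read from so few neighbors. Slc2a13, a proton-linked inositol transporter and the nearest measured gene on one side of Abcd2, had a mean of 9.02 in MTT and 8.14 in MPC (difference 0.89, limma adjusted p = 1.157e-05), a larger difference than that of any ABC gene examined. Cpne8, a copine that binds membranes with calcium, had 8.98 in MTT and 9.22 in MPC (difference -0.24, adjusted p = 0.0173). Kif21a, which lies between Cpne8 and Abcd2, had 11.10 and 11.11 (difference -0.01) and was not called.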
